A study of Mus musculus with 6 samples.

Results

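The nuclear genes for subunits of respiratory complexes II to V were read in macrophages given resolvin D1 (RvD1), a docosahexaenoic acid product that resolves inflammation and binds ALX/FPR2, and in untreated macrophages. Members were taken by gene symbol: Sdha to Sdhd for complex II, symbols starting with Uqcr for complex III, with Cox4 to Cox8 for complex IV and with Atp5 for complex V, and the 1 symbol marked as a pseudogene was left out. This gave 48 of the 38087 genes in the table, 4 of complex II, 8 of complex III, 18 of complex IV and 18 of complex V. Macrophages grown from male C57BL/6J marrow gave 3 libraries after 6 h with 10 nM RvD1 and 3 libraries with no treatment. Donor mice were 8 to 10 weeks old by the protocol and 2 to 4 months old by the sample labels. In both groups marrow was grown for 7 days with 10 ng/ml M-CSF, the growth factor that drives macrophage differentiation, and replated without it for 24 h. No vehicle is described for the untreated cultures, so RvD1 and anything it was dissolved in cannot be told apart. Whether the replicates were separate mice or cultures is not stated in the labels, and the p-values measure only the spread between these libraries, which may be technical.

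The respiratory chain sits in the inner mitochondrial membrane. Succinate dehydrogenase (complex II) passes electrons from succinate to ubiquinone, cytochrome bc1 (complex III) passes them on to cytochrome c, and cytochrome c oxidase (complex IV) gives them to oxygen, while complexes III and IV pump protons that ATP synthase (complex V) uses to make ATP. Complex II is encoded in the nucleus alone, whereas the catalytic core of complex IV and a few subunits of complexes III and V come from mitochondrial DNA. In macrophages, respiration and succinate oxidation are known to shift with the inflammatory state of the cell.

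The start sites of many of these genes carry the letters that the nuclear respiratory factor NRF1 and ETS factors such as GABP bind, and RefSeq start-site windows of build GRCm38.p6 were matched to 37 of the 48 genes. Each window held 250 bases before and 50 bases after a start, with 41 windows in all. The windows of 4 genes are shown because they span the 2 complex II genes with the NRF1 letters and 2 of the genes that were lower after RvD1. The 250 bases before the start are printed 5′ to 3′ on the gene's own strand, and capitals mark the NRF1 letters (GCGCA, then any base, then GCGC) or the ETS letters CCGGAAG on either strand. They lie at chr5:115348959-115349208 for Cox6a1, chr10:80406822-80407071 for Uqcr11, chr13:74350241-74350490 for Sdha and chr9:50603850-50604099 for Sdhd, all on the minus strand.
Cox6a1: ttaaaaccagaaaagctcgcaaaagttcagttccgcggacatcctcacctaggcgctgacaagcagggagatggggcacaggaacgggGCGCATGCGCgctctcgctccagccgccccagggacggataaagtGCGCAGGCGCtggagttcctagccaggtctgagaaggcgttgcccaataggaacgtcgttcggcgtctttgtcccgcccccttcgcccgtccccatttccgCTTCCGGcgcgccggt
Uqcr11: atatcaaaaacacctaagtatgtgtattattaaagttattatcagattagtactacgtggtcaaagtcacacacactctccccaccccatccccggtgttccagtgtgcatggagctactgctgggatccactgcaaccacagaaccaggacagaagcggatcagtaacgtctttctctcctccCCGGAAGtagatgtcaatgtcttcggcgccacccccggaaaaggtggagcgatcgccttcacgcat
Sdha: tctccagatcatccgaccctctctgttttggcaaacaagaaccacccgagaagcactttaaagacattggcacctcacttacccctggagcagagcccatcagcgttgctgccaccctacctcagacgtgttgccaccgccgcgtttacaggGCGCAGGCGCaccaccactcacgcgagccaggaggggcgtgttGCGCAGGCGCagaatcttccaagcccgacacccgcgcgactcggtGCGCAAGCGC
Sdhd: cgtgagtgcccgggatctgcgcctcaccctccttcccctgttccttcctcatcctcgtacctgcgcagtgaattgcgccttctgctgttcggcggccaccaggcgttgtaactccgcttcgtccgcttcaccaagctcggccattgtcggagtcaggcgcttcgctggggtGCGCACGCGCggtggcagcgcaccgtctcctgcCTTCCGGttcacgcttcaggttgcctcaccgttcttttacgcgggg

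The NRF1 letters were present in the windows of 10 of the 37 matched genes (27.0%), against 5.19% of all 27025 genes with a window. These were Sdha, Sdhd, Uqcrc1, Cox6a1, Atp5c1, Atp5g2, Atp5g3, Atp5h, Atp5k and Atp5o. The ETS letters were present in 12 of the 37 (32.4%), against 9.93% of all genes. The YY1 letters AANATGGCG were found in 4 of the 37 (10.8%), against 2.76% of all genes, and the estrogen-related receptor letters TCAAGGTCA in 2 (5.41%), against 0.466%. All were searched on both strands, and a place that matched on both was counted once. In the Cox6a1 window the NRF1 letters stood at 2 places, 162 to 108 bases before the start, and the ETS letters at 1 place, 16 to 10 bases before it. The Uqcr11 window held the ETS letters once, 66 to 60 bases before the start. A match of letters is a description of the window and does not show that a factor was bound.

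Values are the authors' log2 normalized read numbers, on which 0 is the floor. Of the 48 genes, 45 were tested, and each of these 45 was above 0 in all 6 libraries. Cox7b2, Cox8b and Cox8c, forms of complex IV subunits known mainly from testis or from heart and muscle, were listed at 0 in all 6. After RvD1 3 of the 45 tested genes were lower at a limma adjusted p under 0.05 over all 18899 tested genes, and 0 were higher. They were Uqcr11 of complex III and Cox4i1 and Cox6a1 of complex IV. Over all tested genes 0.556% were lower and 0.561% higher at that threshold, 1.12% in all. At an unadjusted limma p under 0.05, 15 members (33.3%) were lower and 1 was higher, against 9.65% of all tested genes lower and 10.3% higher. The libraries of the groups did not overlap for 16 members that were lower (35.6%) and 1 that was higher, against 12.8% and 12.6% of all tested genes. The log2 fold change was negative in 38 of the 45 (84.4%), against 49.2% of all tested genes, with a median of -0.10, against 0.00. In bulk libraries less RNA per cell and fewer cells of a type cannot be told apart.

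**Figure D1:**
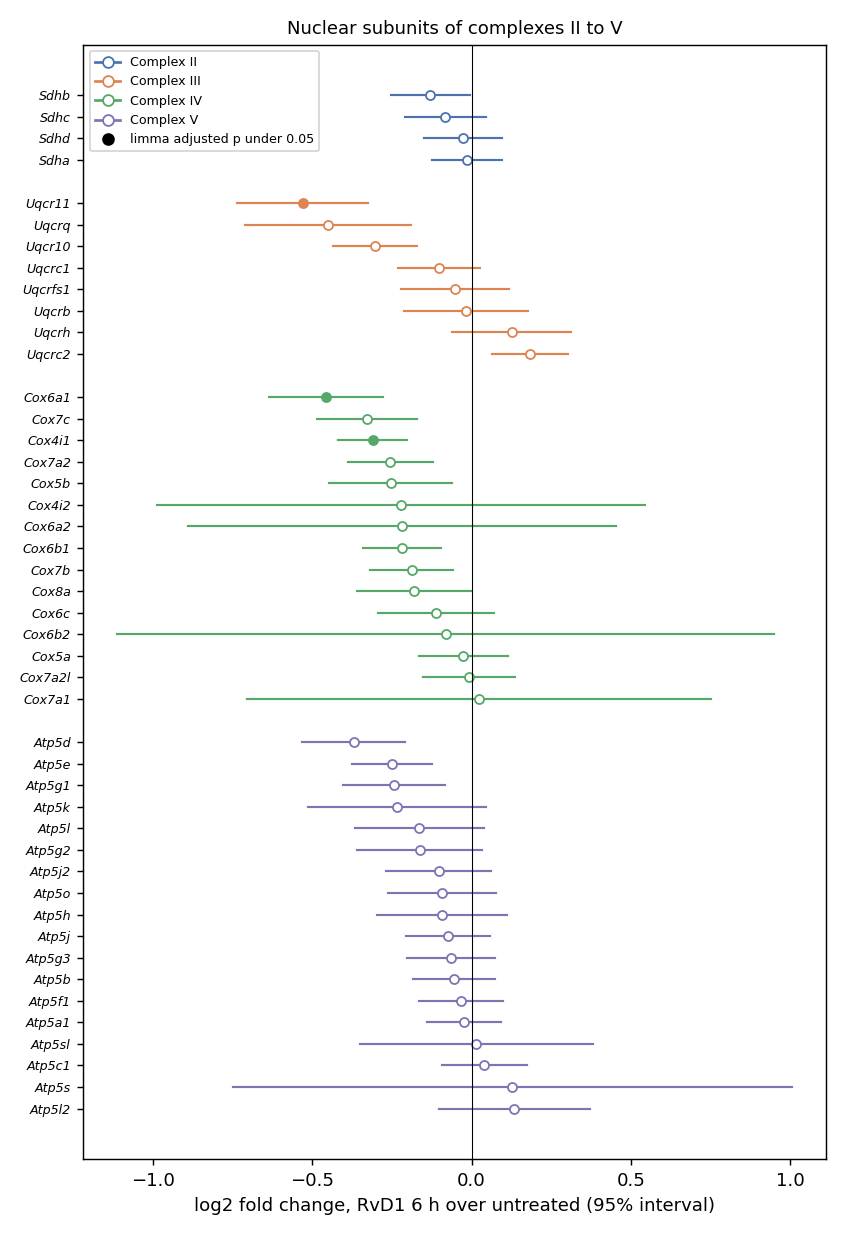
Log2 fold change of each tested member, RvD1 over untreated, with its 95% interval from limma (x axis), by gene (y axis) and complex; n = 3 libraries a group. Filled points are Uqcr11, Cox6a1 and Cox4i1, which passed the limma test, and 38 of the 45 points are on the negative side.

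Complex II also works in the tricarboxylic acid cycle. None of its 4 genes passed the test, and their log2 fold changes ran between -0.13 and -0.01. Sdha, the flavoprotein that oxidizes succinate, had log2 values of 11.74, 11.74 and 11.75 in RvD1 replicates 1, 2 and 3, against 11.75, 11.79 and 11.73 in untreated replicates 1, 2 and 3. The groups overlapped, and the log2 fold change was -0.01 with a 95% interval of -0.12 to 0.10. Sdhb, the iron-sulfur subunit that carries electrons on from the flavin, had 10.45, 10.43 and 10.46 in RvD1 libraries, against 10.50, 10.62 and 10.62 in untreated libraries. The groups did not overlap, but the difference of -0.13 ± 0.05 (SE) did not pass (limma adjusted p = 0.231). The membrane anchors Sdhc and Sdhd, which hold the ubiquinone site, differed by -0.08 and -0.03.

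Complex III held the member with the most negative log2 fold change of all 45. Uqcr11, a small accessory subunit, had log2 values of 8.48, 8.22 and 8.41 in RvD1 libraries, against 8.82, 9.02 and 8.86 in untreated libraries. Every RvD1 library lay below every untreated library. The gene lies at chr10:80402997-80406830 in mm10 on the minus strand. It fell by 30.8% in RvD1 libraries, with means of 8.37 ± 0.14, against 8.90 ± 0.11 in untreated libraries (SD, n = 3 each). The log2 fold change was -0.53 ± 0.09 (SE), and the limma adjusted p was 0.0409.

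Uqcrq and Uqcr10, small accessory subunits as well, had negative log2 fold changes that did not pass. Uqcrq had 9.63, 9.18 and 9.62 in RvD1 libraries, against 9.91, 9.91 and 9.96 in untreated libraries. The groups did not overlap, RvD1 replicate 2 lay lowest, and the log2 fold change was -0.45 ± 0.11 (SE; limma adjusted p = 0.0854). Without RvD1 replicate 2 that fold change was -0.30 (limma adjusted p = 0.156). Uqcr10 had 9.10, 9.04 and 9.13 in RvD1 libraries, against 9.42, 9.39 and 9.36 in untreated libraries. These groups too did not overlap, and the difference of -0.30 ± 0.06 (SE) gave a limma adjusted p of 0.0533.

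Among the members, the Rieske protein and the core proteins of complex III differed less in size than Uqcr11, Uqcrq and Uqcr10. Cyc1, the cytochrome c1 that the symbol rule leaves out, differed by -0.25 (limma adjusted p = 0.0785). Uqcrfs1, the Rieske iron-sulfur protein that takes electrons from ubiquinol, had 9.69, 9.53 and 9.77 in RvD1 libraries, against 9.65, 9.72 and 9.78 in untreated libraries. The groups overlapped, and the log2 fold change was -0.05. Uqcrc1, a core protein of the matrix side, differed by -0.10. Its partner Uqcrc2 had 10.71, 10.75 and 10.67 in RvD1 libraries, against 10.50, 10.51 and 10.57 in untreated libraries. Every RvD1 library was above every untreated one, and Uqcrc2 was the 1 member higher at an unadjusted p under 0.05, with a log2 fold change of 0.18 ± 0.05 (SE) that did not pass adjustment (limma adjusted p = 0.111). Uqcrh, the hinge protein near cytochrome c1, differed by 0.13, and Uqcrb, which lies near the ubiquinone site, by -0.02.

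Complex IV had 2 of the 3 genes that passed, and 14 of its 15 tested genes had negative log2 fold changes, with a median of -0.22. At an unadjusted limma p under 0.05, 8 of the 15 (53.3%) were lower, beside 3 of 8 in complex III, 3 of 18 in complex V and 1 of 4 in complex II. Of all tested genes 9.65% were lower at that threshold. Of genes with a transcript under 1000 bases and an average log2 value of 5 or more, 22.6% were. The tested genes of complex IV had a median transcript of 659 bases. Whether the complexes differ in these shares was not tested. Cox4i1, the subunit through which ATP is known to slow the enzyme, had 11.29, 11.25 and 11.27 in RvD1 libraries, against 11.57, 11.57 and 11.60 in untreated libraries. All RvD1 values were below all untreated values. The gene lies at chr8:120668222-120674207 in mm10 on the plus strand. Cox4i1 fell by 19.3% in RvD1 libraries (log2 fold change -0.31 ± 0.05 SE; limma adjusted p = 0.0338). Its means were 11.27 ± 0.02 in RvD1 libraries and 11.58 ± 0.01 in untreated libraries (SD, n = 3 each).

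Cox6a1, the widely expressed form of subunit 6a, had 10.52, 10.28 and 10.54 in RvD1 libraries, against 10.83, 10.96 and 10.92 in untreated libraries. The groups did not overlap, and RvD1 replicate 2 was again the lowest library. The gene lies at chr5:115345642-115348981 in mm10 on the minus strand. Cox6a1 fell by 27.2% in RvD1 libraries (log2 fold change -0.46 ± 0.08 SE; limma adjusted p = 0.0413). Its means were 10.44 ± 0.15 in RvD1 libraries and 10.90 ± 0.07 in untreated libraries (SD, n = 3 each). With any 1 library other than RvD1 replicate 1 left out, none of the 3 passed, while the log2 fold changes stayed between -0.32 and -0.30 for Cox4i1, -0.50 and -0.37 for Cox6a1 and -0.58 and -0.45 for Uqcr11.

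**Figure D2:**
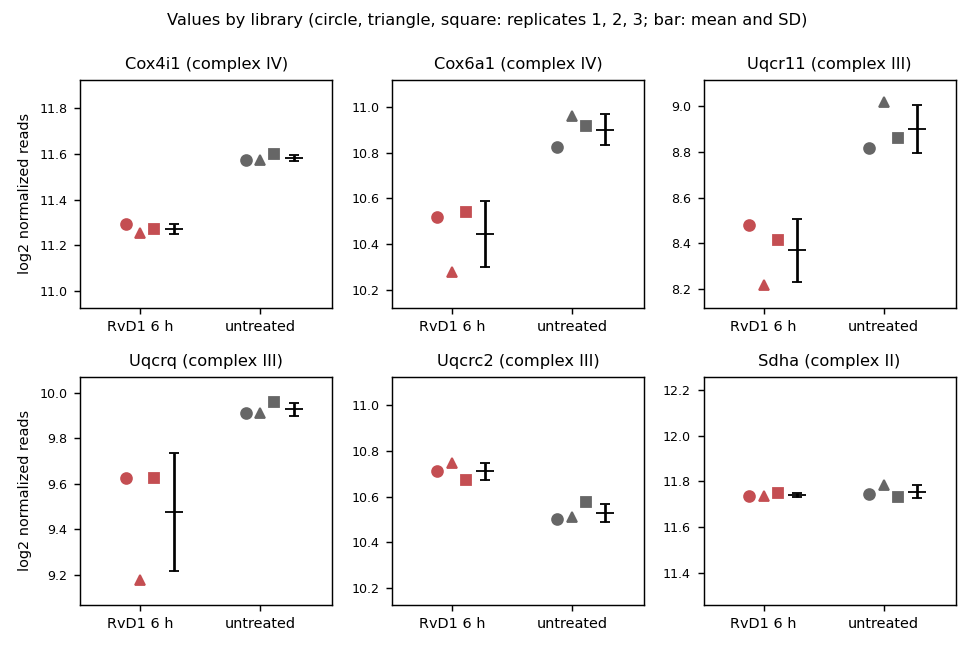
Log2 normalized read numbers (y axis) of named members in each of the 3 RvD1 and 3 untreated libraries, with the mean and SD of each group beside the points. For Cox4i1, Cox6a1 and Uqcr11 the RvD1 points lie below the untreated points without overlap, and RvD1 replicate 2 is the lowest of its group in each.

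A further 6 small subunits of complex IV had groups that did not overlap and did not pass the test. In all, 8 of the 15 tested genes (53.3%) lay lower without overlap, against 12.8% of all tested genes. The share was 30.9% for genes with a transcript under 1000 bases and an average log2 value of 5 or more. Cox7c had 8.50, 8.38 and 8.54 in RvD1 libraries, against 8.79, 8.78 and 8.84 in untreated libraries (limma adjusted p = 0.0627). Cox7a2 had 9.62, 9.61 and 9.54 in RvD1 libraries, against 9.87, 9.78 and 9.90 in untreated libraries (limma adjusted p = 0.0745). The log2 fold change was -0.33 for Cox7c and -0.26 for Cox7a2, both membrane subunits at the outside of the enzyme. Cox6b1, which faces the intermembrane space where cytochrome c docks, had 10.19, 10.21 and 10.17 in RvD1 libraries, against 10.39, 10.37 and 10.47 in untreated libraries. Cox7b had 9.58, 9.57 and 9.52 in RvD1 libraries, against 9.80, 9.70 and 9.74 in untreated libraries. Cox8a had 10.19, 9.93 and 10.15 in RvD1 libraries, against 10.20, 10.31 and 10.32 in untreated libraries. Their log2 fold changes were -0.22 for Cox6b1, -0.19 for Cox7b and -0.18 for Cox8a, where RvD1 replicate 2 lay apart from the other RvD1 libraries. Cox5b, the zinc-binding matrix subunit, differed by -0.25. By contrast Cox5a, a matrix subunit, had 10.10, 9.95 and 9.99 in RvD1 libraries, against 9.98, 10.05 and 10.09 in untreated libraries, with the groups overlapping and a log2 fold change of -0.03. Cox6c differed by -0.11. Cox7a2l, known from work on supercomplexes of complexes III and IV, differed by -0.01.

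Subunits of complex IV that come in more than 1 form were present almost wholly as the widely expressed form. On a per-length scale, as normalized reads per kilobase of transcript, Cox4i1 stood at 3232 in RvD1 libraries and 4007 in untreated libraries, whereas Cox4i2, the form known from lung and from hypoxia, stood at 22.7 in RvD1 libraries and 24.7 in untreated libraries. Cox6a1 stood at 2449 in RvD1 libraries and 3353 in untreated libraries, and Cox6a2, the heart and muscle form, at 21.3 in RvD1 libraries and 24.0 in untreated libraries. Cox6b2, the testis form, had a level of 4.07 reads per kilobase in RvD1 libraries and 4.54 in untreated libraries, and Cox7a1, a heart and muscle form, 26.0 in RvD1 libraries and 26.7 in untreated libraries. Per library, Cox4i2 had log2 values of 3.93, 4.64 and 3.29 in RvD1 libraries, against 4.07, 4.26 and 4.20 in untreated libraries. Cox6a2 had 4.04, 3.23 and 4.14 in RvD1 libraries, against 4.09, 4.15 and 3.84 in untreated libraries. The groups of both overlapped, as did those of Cox6b2, with 1.53, 1.18 and 0.99 in RvD1 libraries, against 0.64, 1.41 and 1.91 in untreated libraries. Cox7a1 had 3.26, 3.48 and 3.30 in RvD1 libraries, against 2.87, 3.90 and 3.20 in untreated libraries, again with overlap. None of these low forms passed the test, and their intervals were wide. The log2 fold change was -0.22 for Cox6a2, with a 95% interval of -0.89 to 0.45, and -0.08 for Cox6b2, with an interval of -1.11 to 0.95. The log2 fold change of Cox4i2 was -0.22 with a 95% interval of -0.99 to 0.55, and that of Cox7a1, the least negative of complex IV, was 0.02 with an interval of -0.70 to 0.75. A change in the low forms as large as that of Cox4i1 was therefore not detectable at this depth.

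None of the 18 genes of complex V passed the test, and their median log2 fold change was -0.08. The most negative was Atp5d, the delta subunit of the central stalk, which had 10.43, 10.19 and 10.35 in RvD1 libraries, against 10.63, 10.73 and 10.73 in untreated libraries. The groups did not overlap, with RvD1 replicate 2 the lowest library, and the difference of -0.37 ± 0.07 (SE) gave a limma adjusted p of 0.0519. Atp5e, the epsilon subunit of the same stalk, had 9.80, 9.71 and 9.71 in RvD1 libraries, against 9.98, 9.97 and 10.02 in untreated libraries. These groups did not overlap either, and the log2 fold change was -0.25 (limma adjusted p = 0.0687). The gamma subunit Atp5c1, the rotating shaft of that stalk, differed by 0.04.

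The subunits of the catalytic head of ATP synthase overlapped between groups. Atp5b, the beta subunit that makes ATP, had 13.50, 13.45 and 13.41 in RvD1 libraries, against 13.53, 13.52 and 13.48 in untreated libraries, and Atp5a1, the alpha subunit, had 12.97, 12.97 and 12.99 in RvD1 libraries, against 12.99, 13.03 and 12.98 in untreated libraries. The log2 fold changes were -0.06 for Atp5b and -0.02 for Atp5a1.

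The proton-carrying c subunit of the rotor is encoded by several genes that give the same mature protein. Atp5g1 had 8.71, 8.56 and 8.56 in RvD1 libraries, against 8.91, 8.85 and 8.81 in untreated libraries, without overlap (log2 fold change -0.24 ± 0.07 SE; limma adjusted p = 0.115). Atp5g2 had 8.18, 8.01 and 7.99 in RvD1 libraries, against 8.16, 8.19 and 8.32 in untreated libraries, and Atp5g3 had 11.16, 11.17 and 11.05 in RvD1 libraries, against 11.27, 11.19 and 11.12 in untreated libraries. The groups of both overlapped, with log2 fold changes of -0.16 for Atp5g2 and -0.06 for Atp5g3. Per length, Atp5g3 gave the highest level of the c subunit genes, with 3099 normalized reads per kilobase in RvD1 libraries and 3242 in untreated libraries, followed by Atp5g2 with 366 in RvD1 libraries and 410 in untreated libraries. Atp5g1 stood at 83.0 in RvD1 libraries and 98.2 in untreated libraries, a level that was set against a principal transcript of 4715 bases. Before division by length Atp5g1 was above Atp5g2. Mean normalized reads were 391 for Atp5g1 and 267 for Atp5g2 in RvD1 libraries, and 463 and 299 in untreated libraries. The same length was used for Atp5g1 in the length and GC correction below.

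The stator and membrane subunits of complex V gave log2 fold changes of -0.23 for Atp5k, -0.16 for Atp5l, -0.10 for Atp5j2, -0.09 for Atp5o, -0.09 for Atp5h, -0.07 for Atp5j and -0.03 for Atp5f1, none of which passed. The symbols also take in genes that are not ATP synthase subunits in the strict sense. Atp5sl, named Dmac2 in the annotation used here and known from assembly of complex I, differed by 0.01. Atp5l2, annotated as a processed pseudogene, had 7.05, 7.26 and 7.07 in RvD1 libraries, against 6.98, 6.93 and 7.07 in untreated libraries, with the groups overlapping, and its log2 fold change of 0.13 was the highest of complex V. Atp5s, a coupling factor of ATP synthase, spread most among the untreated libraries of complex V, with 5.32, 5.14 and 5.55 in RvD1 libraries, against 5.63, 5.79 and 4.20 in untreated libraries, and a log2 fold change of 0.13.

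Levels per length put Atp5b at the top of all members, with 5859 normalized reads per kilobase in RvD1 libraries and 6085 in untreated libraries. Atp5a1 stood at 3258 in RvD1 libraries and 3311 in untreated libraries. Within complex II, Sdhb stood at 1224 in RvD1 libraries and 1340 in untreated libraries, and Sdhc at 405 in RvD1 libraries and 429 in untreated libraries. Among the genes that passed, the per-length level of Uqcr11 was the lowest, with 745 in RvD1 libraries and 1075 in untreated libraries.

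**Figure D3:**
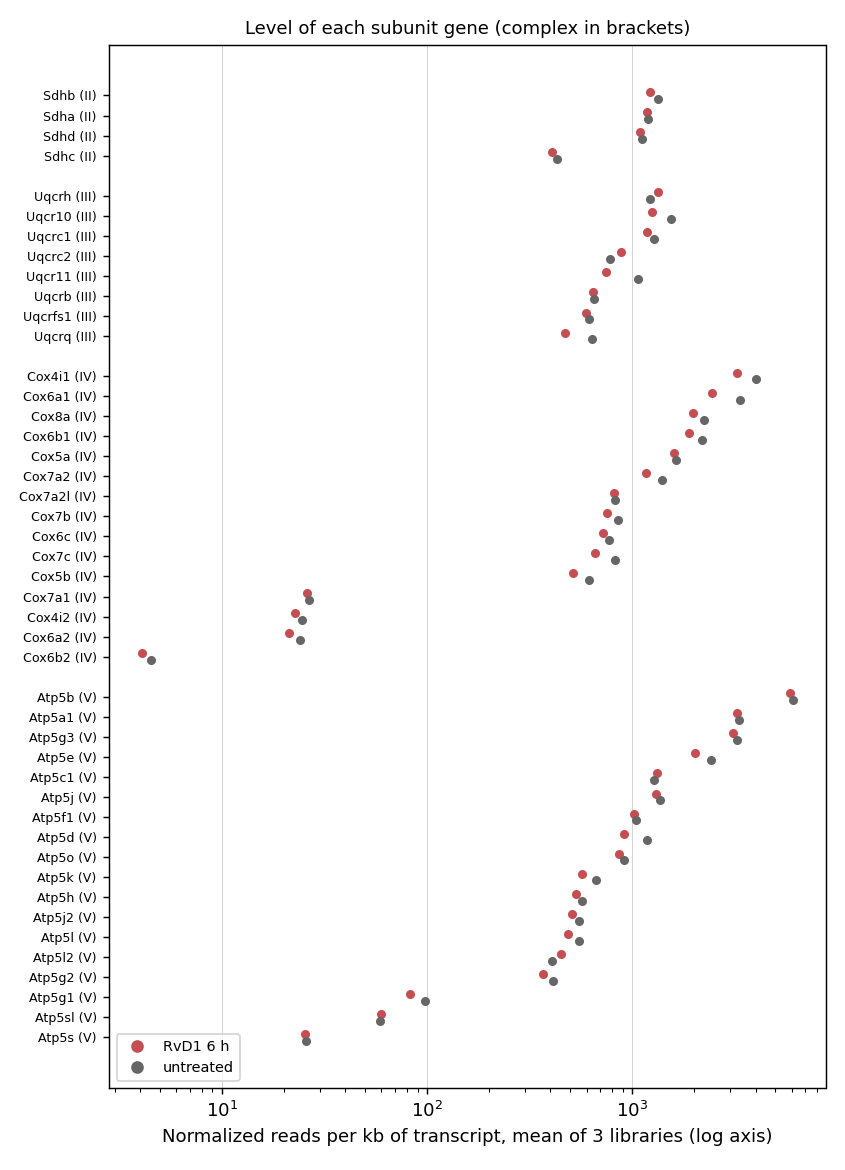
Normalized reads per kilobase of transcript (x axis, log scale) of each tested member (y axis), as the means of the 3 RvD1 and the 3 untreated libraries. Cox6b2 is lowest, at 4.07 in RvD1 libraries and 4.54 in untreated libraries, and Atp5b highest, at 5859 in RvD1 libraries and 6085 in untreated libraries.

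Over the 41 members that averaged 5 or more on the log2 scale, the mean log2 value of each complex was lower in every RvD1 library than in any untreated library. These values are as deposited, and no like means of other genes were set beside them. Singly, 39.0% of the 41 members lay lower without overlap, against 15.3% of all genes at that level. For genes at that level with a transcript under 1000 bases it was 30.9%. For complex IV it was 9.81, 9.71 and 9.74 in RvD1 libraries, against 9.94, 9.97 and 9.98 in untreated libraries. For complex III it was 9.54, 9.48 and 9.55 in RvD1 libraries, against 9.64, 9.69 and 9.67 in untreated libraries. The gaps were narrower in the other two, with 10.74, 10.73 and 10.72 in RvD1 libraries, against 10.75, 10.81 and 10.81 in untreated libraries, for complex II, and 9.36, 9.31 and 9.32 in RvD1 libraries, against 9.42, 9.44 and 9.39 in untreated libraries, for complex V. Of the normalized reads of a library, complex IV genes took 0.0865% ± 0.0037 in RvD1 libraries and 0.102% ± 0.0004 in untreated libraries (SD, n = 3 each). An RvD1 library was the lowest of the 6 for 33 of the 41 members: replicate 3 for 16, replicate 2 for 15 and replicate 1 for 2. Of all 13176 genes at that level, an RvD1 library was the lowest for 6587, with replicate 3 lowest for 14.8% of the 13176, replicate 2 for 23.3% and replicate 1 for 11.9%.

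**Figure D4:**
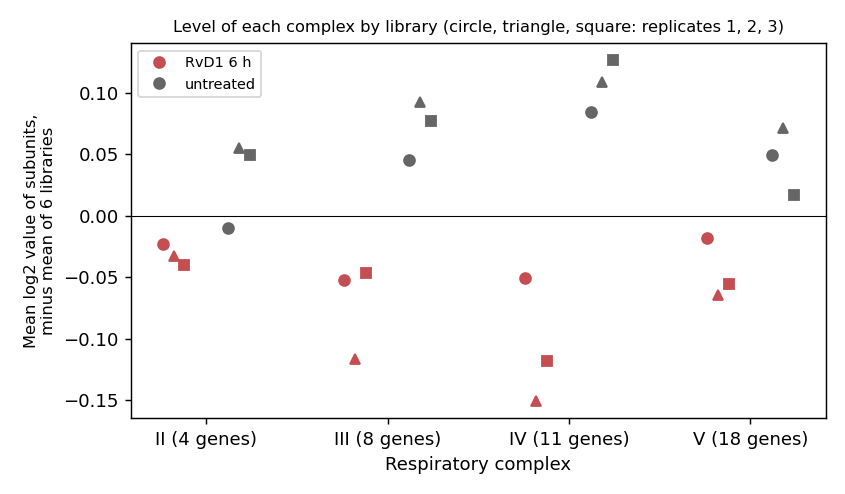
Mean log2 normalized read number of the members that averaged 5 or more, less its mean over the 6 libraries (y axis), in complexes II, III, IV and V (x axis; 4, 8, 11 and 18 genes), with 1 point a library and the shape giving the replicate number. Values are as deposited, without the length and GC correction. The RvD1 points lie below the untreated points in each complex, and in complex II the highest RvD1 and the lowest untreated point lie close together.

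The members have short transcripts, with a median of 765 bases, against 2449 bases for all tested genes. The principal transcripts of Uqcr11, Cox6a1 and Cox4i1 were 445, 571 and 765 bases long, with GC contents of 58.9%, 58.8% and 58.0%. Of the 1839 genes with a transcript under 1000 bases and an average log2 value of 5 or more, 46 were lower and 9 higher at a limma adjusted p under 0.05, and 70.1% had a negative log2 fold change, with a median of -0.09. Of the 23 members of that kind, 21 (91.3%) were negative, with a median of -0.16, and 43.5% were lower at an unadjusted p under 0.05, against 22.6% of all such genes. The 18 members with longer transcripts had a median of -0.04, and none of them passed. At an unadjusted limma p under 0.05, 5 of these 18 (27.8%) were lower and 1 was higher. Of all 13176 genes with an average of 5 or more, of any length, 1617 (12.3%) were lower and 1716 higher. Across the 41 members the log2 fold change had a Spearman correlation of 0.329 with transcript length and -0.487 with GC content, given as a description of genes that share the same libraries.

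With the trend on length and GC content taken out of each library, none of the members passed, against 0.113% of all genes in either direction. Uqcr11 then differed by -0.29 ± 0.08 (SE) at a limma adjusted p of 0.220, Cox6a1 by -0.24 ± 0.06 (adjusted p = 0.196) and Cox4i1 by -0.12 ± 0.05 (adjusted p = 0.396). At an unadjusted p under 0.05, 12 of the 45 were lower and 0 higher, against 6.74% of all genes lower and 4.66% higher. The median was then -0.050 over the 45 members, against -0.0056 over all genes. By complex it was -0.045 for complex II, -0.073 for complex III, -0.12 for complex IV and -0.026 for complex V. The corrected difference was -0.44 for Uqcrq, -0.33 for Cox7c, -0.29 for Cox7b and -0.36 for Atp5g1, members with GC contents of 42.0% to 50.2%. It was -0.19 for Atp5d, with a GC content of 59.3%, -0.12 for Uqcr10, -0.08 for Atp5e and 0.04 for Cox8a. The part of library composition in the results was not tested beyond this correction.

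**Figure D5:**
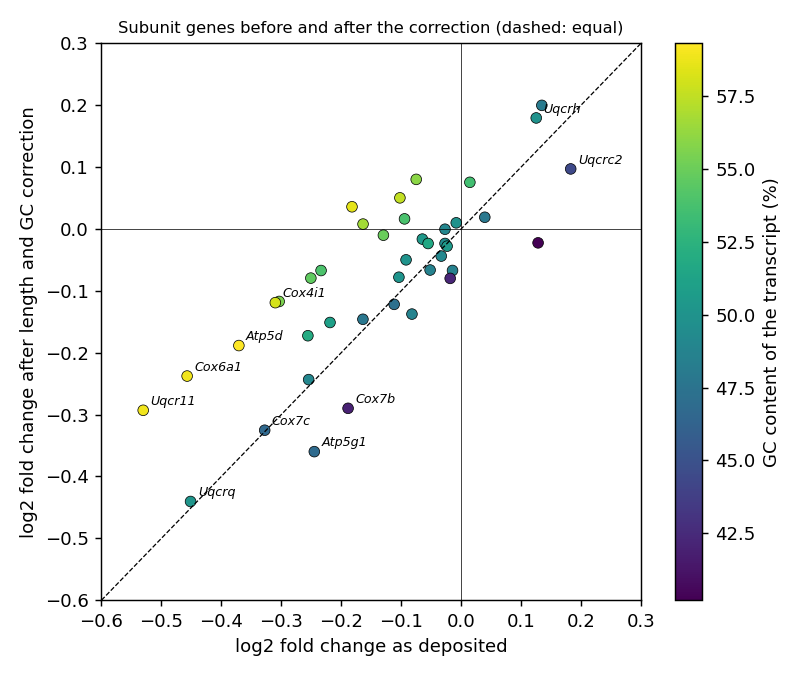
Log2 fold change, RvD1 over untreated, of the 41 members that averaged 5 or more, as deposited (x axis) and after the length and GC correction (y axis), coloured by GC content of the transcript, with a dashed line where both are equal. Uqcr11, Cox6a1, Cox4i1 and Atp5d, with GC contents of 58.0% to 59.3%, lie above the line and nearer to 0 after the correction, whereas Cox7b and Atp5g1 lie below it.

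Genes around the members in the same pathway were read as lists. The lists were chosen with earlier results of these data known. Of 70 such genes, 60 were tested, and 2 were higher and 0 lower at a limma adjusted p under 0.05. Of all tested genes 0.561% were higher and 0.556% lower. The median log2 fold change of the 60 was 0.00 as deposited. After the length and GC correction it was -0.031, with 33 of 60 negative, against -0.050 and 32 of 45 for the members. The related genes had a median transcript of 2237 bases, against 765 bases for the members. Assembly factors did not pass in any complex, with medians of 0.02 for complex II (4 of 4 tested), 0.04 for complex III (6 of 6), 0.04 for complex IV (24 of 25) and -0.09 for complex V together with the ATPase inhibitor (4 of 4). After the correction these medians were, in the same order, -0.016, 0.057, -0.013 and -0.075. The smallest p of these lists belonged to Sdhaf2 in complex II (log2 fold change 0.24; limma adjusted p = 0.0914), Lyrm7 in complex III (0.61; limma adjusted p = 0.338) and Cox19 in complex IV (0.22; limma adjusted p = 0.178). Sdhaf2, which helps insert the flavin into Sdha, averaged 9.30 ± 0.07 in RvD1 libraries and 9.06 ± 0.05 in untreated libraries (SD, n = 3 each), and its groups did not overlap. The inhibitor Atpif1, which blocks reverse rotation of ATP synthase, had 9.94, 9.97 and 10.08 in RvD1 libraries, against 10.18, 10.20 and 10.19 in untreated libraries, without overlap but also without passing (limma adjusted p = 0.117). Cyc1, the cytochrome c1 that the symbol rule leaves out of complex III, had 10.41, 10.26 and 10.38 in RvD1 libraries, against 10.56, 10.64 and 10.60 in untreated libraries (log2 fold change -0.25; limma adjusted p = 0.0785). Cycs, the somatic cytochrome c that shuttles electrons between complexes III and IV, differed by 0.00. The 6 mitochondrially encoded subunits of complexes III to V, counted among the 70, were not found by symbol among the genes with values and so were not analysed.

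Of 12 regulators of respiratory genes 11 were tested and none passed, with a median of -0.04, or -0.12 after the length and GC correction. Gabpa, the DNA-binding part of GABP, differed by 0.23 (limma adjusted p = 0.0759) and, once corrected for length and GC content, by 0.026 (limma adjusted p = 0.896), Nrf1 by -0.10 and the coactivator Ppargc1b by -0.74 ± 0.24 (SE; limma adjusted p = 0.145). The groups of 5 of the 11 regulators (45.5%) did not overlap and lay lower in RvD1 libraries, against 12.8% of all tested genes. Those of 2, Gabpa and Tfb1m, did not overlap and lay higher, against 12.6% of all tested genes. At an unadjusted limma p under 0.05, 3 (27.3%) were lower and 1 higher, against 9.65% and 10.3% of all tested genes. Among the 5 that lay lower, Pprc1, a coactivator related to PGC-1, differed by -0.22 (limma adjusted p = 0.0903). Esrra, the estrogen-related receptor alpha, differed by -0.31 (limma adjusted p = 0.109). After the correction these were -0.17 for Pprc1 and -0.12 for Esrra. Ppargc1a was above 0 in 2 libraries and was not tested. A list of 8 genes tied to subunit switching or loss of mitochondria in low oxygen was chosen with earlier results of these data known. Its counts and median are therefore a description and not a test. Of the 8, 2 were higher and 0 lower at a limma adjusted p under 0.05, against 0.561% and 0.556% of all tested genes. Hif1a, the oxygen-regulated transcription factor, had 11.53, 11.58 and 11.50 in RvD1 libraries, against 11.26, 11.17 and 11.19 in untreated libraries, and rose by 0.33 on the log2 scale in RvD1 libraries (limma adjusted p = 0.0372). Bnip3, a receptor for removal of mitochondria, had 9.13, 9.09 and 9.11 in RvD1 libraries, against 8.73, 8.53 and 8.63 in untreated libraries, and rose by 0.48 (limma adjusted p = 0.0337). Both had groups that did not overlap. The list's median was 0.20, against 0.00 for all tested genes, and 0.14 after the length and GC correction, against -0.0056. After the length and GC correction Hif1a differed by 0.13 (limma adjusted p = 0.333) and Bnip3 by 0.35 (limma adjusted p = 0.131), and neither passed with any 1 library other than RvD1 replicate 1 left out. Cox4i2 and Lonp1, known for the switch of subunit 4 in low oxygen, differed by -0.22 and -0.03, and Higd1a, a complex IV partner induced by low oxygen, by 0.13.

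Some members share sequence with other genes. Copies of at least 95% identity over at least 50% of the transcript were found for 9 members (Cox7c, Uqcrb, Atp5o, Atp5c1, Atp5h, Atp5l, Atp5k, Atp5g2 and Atp5l2), so their values are uncertain, since the counting could split reads among copies. Of the 18 copies with values, 17 were above 0 in every library and 0 passed the test. For Atp5g2, with means of 8.06 in RvD1 libraries and 8.22 in untreated libraries, the copy Gm10231 stood higher, at 9.15 in RvD1 libraries and 9.39 in untreated libraries. None of the 3 genes that passed had such a copy. Exons of 13 members overlap another gene, among them Cox4i1 with Emc8 on the other strand, and the use of strand in counting is not given in the sources used here. Emc8 differed by -0.28 ± 0.08 (SE) at a limma adjusted p of 0.116, so reads of Cox4i1 and Emc8 may not be separable.

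Depth and cell makeup were read once for all 6 libraries. The depth estimated from the spacing of low values was 16.3, 11.2 and 12.8 M reads in RvD1 replicates 1, 2 and 3 and 10.1, 14.3 and 9.05 M in untreated replicates 1, 2 and 3. All 7 macrophage markers were above 0, and their summed normalized reads lay between 99979 and 127856 in RvD1 libraries and between 96918 and 125533 in untreated libraries. Fibroblast and stroma markers were also abundant, with sums of 36497 to 56841 in RvD1 libraries and 40136 to 47056 in untreated libraries, and none of the list passed the test. Sums of muscle and fat markers, which did not overlap, were 249 to 265 in RvD1 libraries and 315 to 327 in untreated libraries. Nearly all of that sum was 1 gene, Acta1, with mean log2 values of 7.99 in RvD1 libraries and 8.31 in untreated libraries, while Ckm and Myh4 were at 0, Plin1 and Ucp1 near 0, and Adipoq at 1.70 in RvD1 libraries and 1.40 in untreated libraries. B cell marker sums did not overlap either, at 394 to 510 in RvD1 libraries and 304 to 389 in untreated libraries, with Ms4a1 at 0. Erythroid marker sums lay near the floor, at 0 to 2.29 in RvD1 libraries and 2.44 to 2.77 in untreated libraries. Sums of neutrophil, dendritic cell and T or NK cell markers overlapped between groups, and 0 markers of any list passed the test. The part of these other cell types in the results was not tested.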

How the data were processed

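Poly-A RNA of mouse macrophages was sequenced in 6 libraries, 3 given RvD1 and 3 untreated, grouped by sample title. The submitters' processing notes name TopHat2 2.0.7 and mm10, and for the counter and the normalization the software is not given in the sources used here. A single value column a library was deposited by the authors, in a table of 38087 genes, marked as normalized per the file headers, and its values, between 0 and 17.4, were read as log2 normalized read numbers. Between 40.7% and 51.4% of low values lay within 0.02 reads of a whole read number, so no count test was run.

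Genes above 0 in at least 3 libraries (18899) were tested on the values as deposited with limma 3.58.1 (R 4.3.3), with treatment alone in the model, a mean-variance trend, two-sided tests and Benjamini-Hochberg adjustment over all tested genes (threshold 0.05; 4 residual and 4.62 prior degrees of freedom). The script was tested on simulated data. The members, the related lists and the alternatives were chosen with earlier results of these data known. All tested members are named with their fold change. Values by library are given by rule for those that passed, the 5 with the smallest p, the highest and lowest fold change of each complex and the subunits with several forms, and for others chosen after their values were seen. From each related list the genes that passed, the smallest p and a few set genes are named.

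Lengths, GC content and places came from GENCODE M21, which held 36308 of the table's identifiers (95.3%), using the principal transcript. The length and GC correction subtracted splines with 4 knots from each library. Copies were found with BLAST 2.17.0. Other settings tried were the filter, a pseudocount, quantile scaling, no trend, a replicate block and leaving out each library.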

Additional observations from a re-analysis of the deposited data

How the results depend on the processing

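Directions of the complex medians held under all settings run, and none of the 3 members that passed changed sign in any of them, but 20 members that did not pass changed sign in at least 1. With the length and GC correction, with or without the replicate block, the log2 fold change was 0.036 for Cox8a, 0.050 for Uqcrc1, 0.080 for Atp5j, 0.016 for Atp5o, 0.0079 for Atp5g2, 0.087 for Cox6b2, 0.0099 for Cox7a2l and -0.022 for Atp5s. On longest transcripts it was 0.031 for Cox8a, 0.080 for Atp5g2, 0.065 for Atp5a1, 0.086 for Cox6b2, 0.015 for Cox7a2l and -0.0046 for Atp5s, and with a pseudocount -0.0032 for Cox7a1. With 1 library left out, it ran -0.069 to 0.047 for Uqcrb, -0.11 to 0.014 for Uqcrfs1, -0.070 to 0.0049 for Cox5a, -0.39 to 0.068 for Cox6a2, -0.20 to 0.31 for Cox7a1, -0.0029 to 0.070 for Atp5c1, -0.56 to 0.11 for Cox4i2, -0.42 to 0.21 for Cox6b2, -0.064 to 0.0063 for Atp5f1, -0.11 to 0.16 for Atp5sl, -0.026 to 0.0016 for Sdha, -0.060 to 0.037 for Cox7a2l, -0.14 to 0.00084 for Atp5h and -0.38 to 0.42 for Atp5s. The count of members that passed (3) became 0 with no filter, 0 without the mean-variance trend, 0 with the length and GC correction and 0 with that correction on longest transcripts, a setting chosen after seeing the data. It became 7 among genes with a mean of at least 5, where Atp5d, Atp5e, Cox7c and Uqcr10 joined, and 5 with quantile scaling, where Atp5d and Uqcr10 joined. Over all genes the count of 211 became 12 with no filter, 464 with a mean of at least 5, 1 without the trend, 21 with the correction and 29 on longest transcripts. The 2 related genes that passed became 0 with no filter, without the trend and with either correction. The cause of these shifts was not tested.

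The complex IV median of -0.22 became -0.18 with a pseudocount, -0.12 with the correction and -0.14 on longest transcripts, and the complex V median of -0.08 became -0.026 and -0.052 with these corrections. Leaving out 1 library gave 0 to 451 genes, 0 to 4 members and 0 to 2 related genes, the highest without RvD1 replicate 1. Without any other single library 0 members and 0 related genes passed, and over all genes 5 passed without untreated replicate 1, 3 without untreated replicate 2 and 0 without RvD1 replicate 2, RvD1 replicate 3 or untreated replicate 3. Medians then ran between -0.08 and -0.04 for complex II, -0.11 and -0.056 for complex III, -0.23 and -0.18 for complex IV, and -0.09 and -0.06 for complex V.

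Same-numbered libraries deviated with correlations of 0.301, -0.0801 and 0.417, while libraries with unlike numbers gave -0.393 to 0.0879. Numbers 1 and 3 thus correlated above every unlike pair, while RvD1 replicate 2 did not correlate best with its own number. The highest log2 value was 17.15, 17.31 and 17.43 in RvD1 replicates 1, 2 and 3. It was 17.17, 17.29 and 17.43 in untreated replicates 1, 2 and 3, so it rose with the number in both groups. Estimated depth and the share of genes at 0 did not follow the same order in both groups. The main fit left the numbers out, and whether same-numbered libraries share a source was not tested. With a replicate block 1896 genes, 13 members (12 lower, and Uqcrc2 higher) and 10 related genes passed. With the block and the correction together these were 668 genes, 5 members (Atp5g1, Cox6a1, Cox7b, Cox7c and Uqcrq) and 1 related gene, with medians of -0.12 for complex IV and -0.026 for complex V. With 3 libraries a group, differences under about the width of the intervals given could not be shown.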
